A study of Mus musculus with 126 samples.

Results

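The matrix metalloproteases (Mmps) and their tissue inhibitors (Timps) were examined in prostate tumors of transgenic mice. The genes were Mmp2, Mmp7, Mmp9, Mmp11, Mmp14, Mmp15, Mmp24, Timp1, Timp2 and Timp3, taken by the gene symbol of the array platform (for Mmp15, which the platform table used here does not list, by the study's own probe set annotation). Each gene was represented by its probe set with the highest mean level, and Mmp24 by every probe set that carries its symbol. This gave 11 probe sets of 41345 on the array, for 10 genes, and all 11 passed the filter on low mean levels, which left 23508 named probe sets for testing. The 11th probe set is annotated to both Mmp24 and BC029722, and the RefSeq models of these genes overlap on opposite strands, so its signal cannot be assigned to Mmp24 alone and it is given separately throughout.

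Expression was measured on Affymetrix Mouse Gene 2.0 ST arrays in 126 primary prostate tumors, 1 from each of 126 males of an F2 intercross between TRAMP and NOD/ShiLtJ mice. Of the males, 87 carried the label metastasis and 39 the label no metastasis. All of them were positive for the TRAMP transgene (Tg+), in which the probasin promoter directs the SV40 T antigen to prostate epithelium, so no tumor-free or transgene-negative prostate is among the samples. Tumors were collected at 30 weeks of age or at a humane endpoint, and each F2 male has its own mixture of the parental genomes. Primary tumor burden was between 0.1 and 14.0 g, with a median of 4.7 g in males with metastasis and 4.0 g in males without. Values are log2 levels after robust multi-array averaging (RMA), and levels of different probe sets were not compared with each other, because probes differ in their response.

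Mmps are zinc-dependent proteases that cleave extracellular matrix, growth factors and cell surface proteins. Most are made as inactive precursors. Mmp2 and Mmp9 are the gelatinases, Mmp7 (matrilysin) is a small protease made mainly by glandular epithelium, and Mmp11 (stromelysin-3) is activated inside the cell by furin. Mmp14, Mmp15 and Mmp24 are anchored in the membrane, and Mmp14 activates the Mmp2 precursor on the cell surface in a complex with Timp2. Timps bind the active site of Mmps, and Timp3, which is held in the matrix, also inhibits several Adam and Adamts proteases. In many carcinomas fibroblasts and macrophages make much of the Mmp2, Mmp14 and Timp1 RNA, while Mmp24 is best known from the nervous system.

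The arrays had medians between 5.84 and 6.05, and no pair of arrays correlated above 0.992. The array of 1 tumor of 0.4 g without metastasis had a mean correlation of 0.880 with the other arrays, against 0.915 for the next lowest, and leaving it out changed no call at an adjusted p under 0.05 for the Mmps and Timps in any of the 6 comparisons. The neuroendocrine marker list (Chga, Syp and 7 other genes with a probe set) separated 9 tumors from the rest. Its mean was between 6.13 and 8.32 in those 9 tumors, against 8.93 to 10.4 in the other 117. Of these 9 tumors 5 had metastasis and 4 had none, 5 weighed under 1 g, and their burden was between 0.1 and 4.9 g. The epithelial list mean was higher in them, with a median of 10.02 against 6.36 in the other tumors, as were the smooth muscle mean (9.92 against 6.79) and the seminal vesicle secretory mean (8.34 against 4.71). The last of these ran from 4.44 to 11.2 in the 9 tumors. Medians were also higher for the prostate secretory (8.73 against 5.37) and stromal means (8.41 against 7.41). The same held for the macrophage (7.55 against 7.08), endothelial (7.36 against 6.82) and neutrophil means (5.10 against 4.81). The neutrophil mean was low in all tumors, between 4.58 and 5.98, and its gene S100a8 was under the filter on low levels. The bound of 8.5 that sets these tumors apart was chosen after the values were seen. For the 6 comparisons, the fits of the Mmps and Timps below are also given without them where a call differs. The exception is Mmp9 against burden, for which r is given in place of the fit. Fits with only 1 list mean as a covariate were made on all 126 tumors and were not repeated without them. In bulk tumors, fewer cells of a type and less RNA per cell cannot be told apart.

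Mmp7 varied most among the 10 genes. Its level was 5.39 in the lowest tumor, 6.48 at the median and 12.8 in the highest, and its SD of 2.19 exceeded that of 99.98% of the tested probe sets. The 3 highest values were in tumors of 0.1, 0.4 and 0.4 g, and the 3 lowest in tumors of 7, 4.4 and 5 g. Mmp7 was above the middle of its range (9.09) in 10 of 15 tumors under 1 g, in 10 of 26 tumors of 1 to under 3 g, in 10 of 48 tumors of 3 to under 6 g and in 3 of 37 tumors of 6 g and over. Mmp2, Timp1 and Mmp14 followed with SDs of 1.01, 0.97 and 0.77. The probe set used for Mmp11 was nearly flat, between 5.95 and 6.79 over all tumors, with an SD of 0.16 that exceeded those of only 6.89% of the tested probe sets. A second Mmp11 probe set had a mean of 6.16 and an SD of 0.24, and its r with the first was -0.023.

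The promoters of Mmp7, Mmp14 and Mmp24 are shown because these genes differ most in how they moved across the tumors: Mmp7 with the epithelial and prostate secretory genes, Mmp14 with the stromal genes, and Mmp24 against the epithelial genes. The sequences are from RefSeq on GRCm38.p6, plus strand, and each gives the 150 bases before the annotated start of the gene. The windows are chr9:7691940-7692089 for Mmp7, chr14:54431448-54431597 for Mmp14 and chr2:155775192-155775341 for Mmp24. Capitals mark matches, on either strand, to an AP-1 motif (TGANTCA), a GC box (GGGCGG) or a TATA box (TATAAA).
Mmp7: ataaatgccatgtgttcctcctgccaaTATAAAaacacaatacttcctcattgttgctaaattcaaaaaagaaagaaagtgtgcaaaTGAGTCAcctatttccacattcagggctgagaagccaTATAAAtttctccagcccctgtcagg
Mmp14: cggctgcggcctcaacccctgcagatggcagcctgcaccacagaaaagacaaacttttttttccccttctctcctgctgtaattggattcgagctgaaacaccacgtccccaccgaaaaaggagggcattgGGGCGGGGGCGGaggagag
Mmp24: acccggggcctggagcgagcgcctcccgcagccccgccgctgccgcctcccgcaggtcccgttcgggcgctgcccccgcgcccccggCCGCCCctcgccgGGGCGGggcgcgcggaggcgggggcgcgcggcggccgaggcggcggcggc
Over windows from 250 bases before to 50 bases after the start, the table held 8 of the 10 genes. The AP-1 motif was in 1 of the 8 (Mmp7, starting at -63, with TATA boxes at -123 and -26), as it was in 7.81% of 32851 windows. The GC box was in the other 7, as in 35.7% of all windows, and the TATA box in Mmp7 alone, as in 13.6% of all windows. None of the matches overlapped another, and they describe letters in the window and not a site in use.

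The first comparison was with primary tumor burden in g. Mmp7 had medians of 11.3, 8.12, 6.38 and 6.22 in tumors under 1 g, of 1 to under 3 g, of 3 to under 6 g and of 6 g and over. Its slope was -0.34 per g (SE 0.057), the steepest of the 11, with an adjusted p of 1.99e-06 by limma. The ranges of all 4 burden classes overlapped, since single tumors under 1 g were as low as 5.96 and single tumors of 6 g and over as high as 10.4.

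Timp2 and Mmp14, which act together on the Mmp2 precursor, were also lower in heavier tumors. Timp2 had medians of 9.97, 9.40, 9.07 and 8.80 from the lightest to the heaviest class, and its slope was -0.09 per g (SE 0.018, adjusted p = 3.00e-05 by limma). Mmp14 had medians of 7.98, 7.79, 7.16 and 7.26, with a slope of -0.09 per g (SE 0.021, adjusted p = 0.00036 by limma). Mmp15, another membrane-anchored protease, fell by 0.05 per g (SE 0.011, adjusted p = 6.36e-05 by limma), with medians of 8.81, 8.39, 8.28 and 8.19. For each of these 3 genes the lowest and highest tumors of every class overlapped those of the next.

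Among the gelatinases, Mmp2 had medians of 9.50, 9.07, 8.35 and 8.27 and a slope of -0.08 per g (SE 0.029, adjusted p = 0.0270 by limma). Mmp9, a protease that neutrophils and macrophages also make, had medians of 5.88, 5.67, 5.57 and 5.67 and a slope of -0.04 per g (SE 0.012, adjusted p = 0.0104 by limma). Without the 2 tumors farthest from the median burden, Mmp2 had an adjusted p of 0.0733 by limma. The highest Mmp9 value, 7.90, was in a tumor of 1.13 g with metastasis. The rank correlation of Mmp9 with burden was weak, with rho = -0.166 (permutation p = 0.0634), against Pearson's r = -0.264 (permutation p = 0.00253), and r was -0.119 without the 9 tumors (permutation p = 0.2).

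Mmp24 moved the other way. Its median was 7.71 in tumors under 1 g, 8.19 at 1 to under 3 g, 8.24 at 3 to under 6 g and 8.23 at 6 g and over, and its slope was 0.06 per g (SE 0.016, adjusted p = 0.000767 by limma). Mmp24 was at or under the middle of its range (7.63) in 7 of 15 tumors under 1 g and in 6 of 111 heavier tumors. The probe set shared with BC029722 had medians of 7.68, 7.57, 7.75 and 7.70 in the same classes and a slope of 0.01 per g (SE 0.0071, adjusted p = 0.277 by limma).

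Timp3 had a slope of -0.05 per g (SE 0.020, adjusted p = 0.0559 by limma), and Timp1, the inhibitor most often induced by inflammation and injury, a slope of -0.06 per g (SE 0.028, adjusted p = 0.101 by limma). On log2 of burden in place of grams both passed, with adjusted p of 0.0164 and 0.00113 by limma, and Timp3 also passed with the mouse tag range as a block (adjusted p = 0.0189). Of all 23508 tested probe sets, 6543 passed as higher and 4859 as lower on log2 of burden. With the block, 5164 passed as higher and 4073 as lower. Mmp11 had a slope of 0.00 per g (SE 0.0048, adjusted p = 0.972 by limma). In all, 7 of the 11 probe sets passed the threshold of 0.05, 6 of them lower and 1 higher with burden. Of all 23508 tested probe sets 36.7% passed, 20.3% higher and 16.4% lower, with a median slope of 0.0036.

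**Figure D1:**
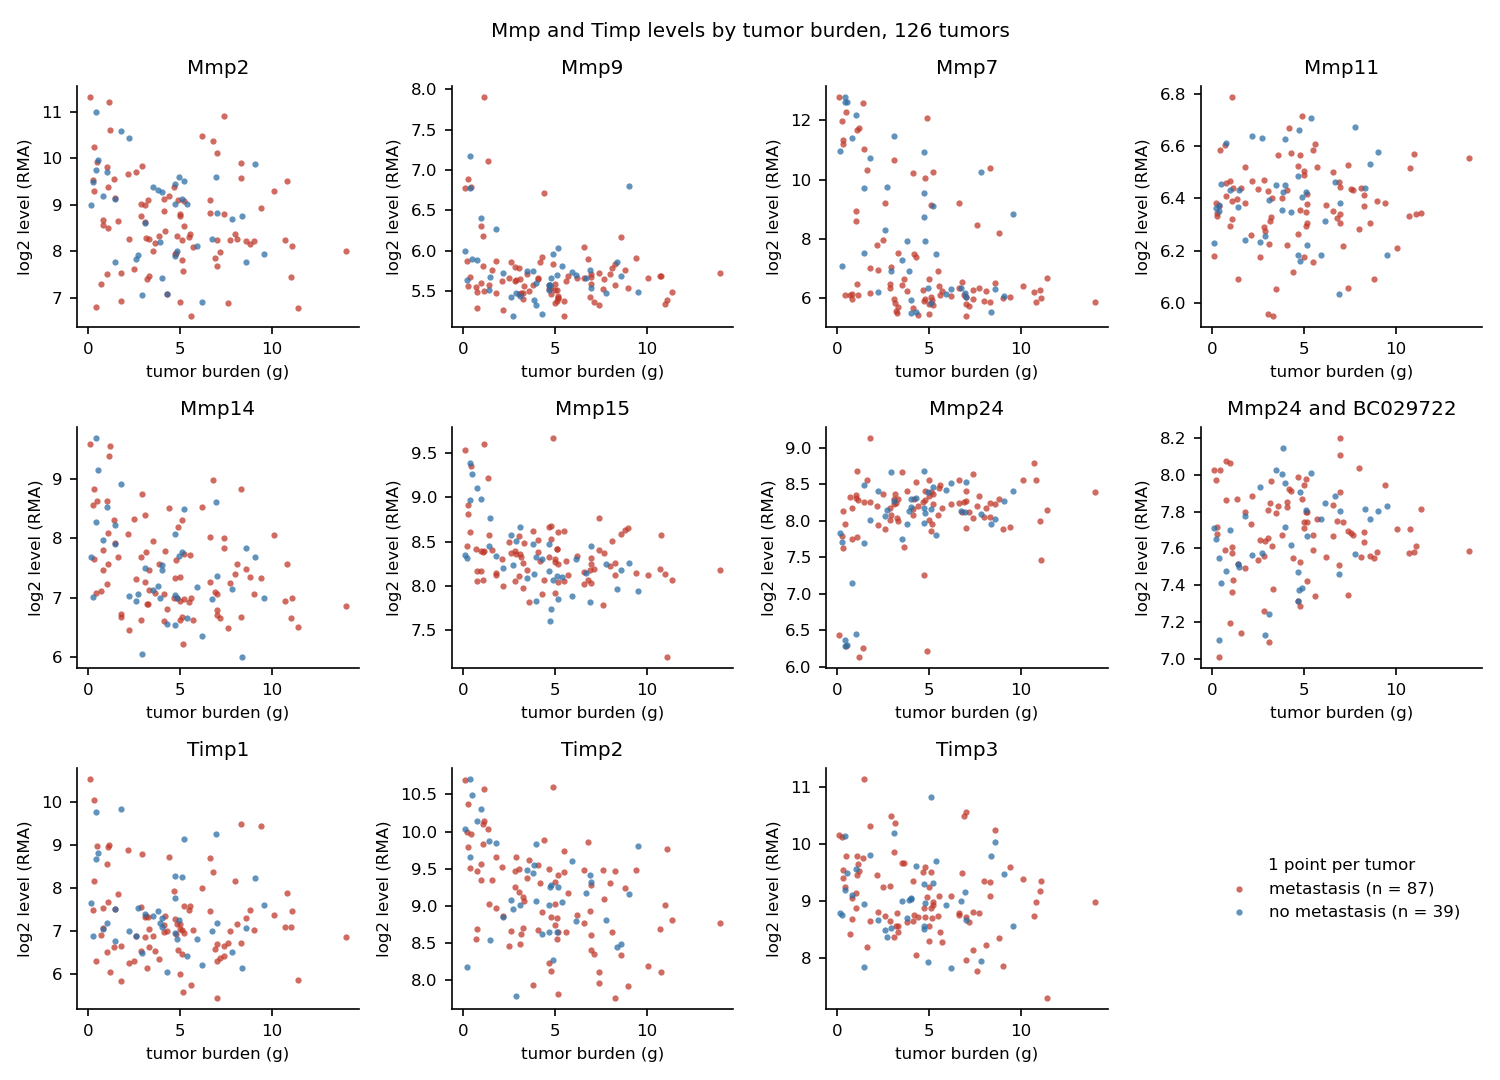
Log2 level of each of the 11 probe sets (vertical axis) against primary tumor burden in g (horizontal axis), 1 point per tumor, 87 with metastasis in red and 39 without in blue. Mmp7 spans 5.39 to 12.8 with its highest values in tumors under 1 g, Mmp24 has 9 tumors between 6.13 and 6.44 apart from the rest, and Mmp11 stays between 5.95 and 6.79.

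Fewer probe sets passed against burden without the light tumors or without the 9 tumors with a low neuroendocrine mean. Without the 15 tumors under 1 g, 2 of the 11 probe sets passed, Mmp7 (-0.25 per g, adjusted p = 0.00629 by limma) and Timp2 (-0.07 per g, adjusted p = 0.0156 by limma), where 8.24% of all tested probe sets passed. In that fit the slopes were -0.07 per g for Mmp14 (SE 0.024, adjusted p = 0.0596 by limma), -0.03 for Mmp15 (SE 0.011, adjusted p = 0.0516 by limma), -0.05 for Mmp2 (SE 0.033, adjusted p = 0.353 by limma), -0.02 for Mmp9 (SE 0.013, adjusted p = 0.332 by limma) and 0.03 for Mmp24 (SE 0.015, adjusted p = 0.306 by limma). Without the 9 tumors, 3 passed, Mmp7 (-0.23 per g, adjusted p = 0.00181), Timp2 (-0.06 per g, adjusted p = 0.00795) and Mmp15 (-0.03 per g, adjusted p = 0.0244), all by limma, where 11.5% of all tested probe sets passed. The Mmp24 slope was then 0.01 per g (SE 0.0093, adjusted p = 0.346 by limma), the Mmp14 slope -0.05 per g (SE 0.021, adjusted p = 0.0689 by limma) and the Mmp2 slope -0.04 per g (SE 0.030, adjusted p = 0.476 by limma). The tag numbers of the mice, which the labels do not tie to a batch, were used to split the tumors into 4 ranges. The correlation of Mmp2 with burden was -0.727 in 18 tumors with tags under 500 and 0.026 in 48 tumors with tags of 1000 and over, and that of Mmp14 was -0.674 and -0.020 in the same tumors. The correlations of Mmp7 (-0.694, -0.674, -0.488 and -0.242) and Timp2 (-0.416, -0.704, -0.363 and -0.351) were below 0 in all 4 ranges. Those of Mmp9, Mmp14, Mmp15, Timp1 and Timp3 were also below 0 in all 4. Their weakest values were -0.126, -0.020, -0.118, -0.122 and -6.3e-05.

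The epithelial and stromal list means were themselves lower in heavier tumors, with r = -0.526 and r = -0.411 against burden over 126 tumors. The epithelial mean had medians of 8.98, 6.87, 6.36 and 6.28 in the 4 burden classes, and the stromal mean 8.10, 7.74, 7.42 and 7.34. When both means were entered beside burden, 0 of the 11 probe sets passed, where 0.442% of all tested probe sets did. By limma, 3253 of 23508 tested probe sets, and 0 of the 11, had an unadjusted p under 0.05 in that fit, and 0 of the 11 passed without the 15 tumors under 1 g (0.634% of all tested probe sets) or without the 9 tumors (0.204%). The slope of Mmp7 was then -0.05 per g (SE 0.047, adjusted p = 0.718 by limma), that of Timp2 -0.01 (SE 0.016, adjusted p = 0.823 by limma), that of Mmp14 0.01 (SE 0.014, adjusted p = 0.779 by limma) and that of Mmp24 -0.02 (SE 0.012, adjusted p = 0.412 by limma). With the stromal mean as the only covariate, Mmp7 (-0.22 per g, adjusted p = 0.0121) and Mmp15 (-0.04 per g, adjusted p = 0.0356) passed by limma, where 6.06% of all tested probe sets did.

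**Figure D2:**
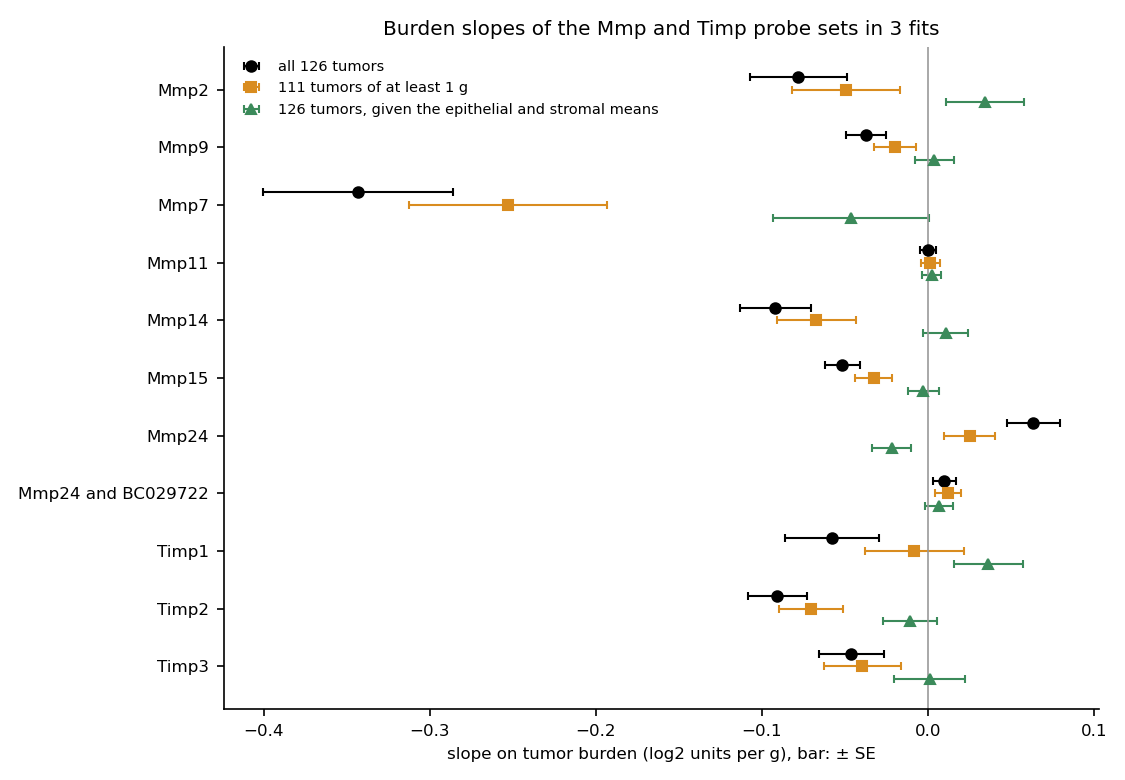
Slope of each of the 11 probe sets on tumor burden in log2 units per g (horizontal axis), with bars of 1 SE, in all 126 tumors (circles), in the 111 tumors of at least 1 g (squares) and in 126 tumors with the epithelial and stromal means as covariates (triangles). The Mmp7 slope is -0.34, -0.25 and -0.05 in the 3 fits, and the Mmp24 slope 0.06, 0.03 and -0.02.

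The second comparison set males with metastasis against males without. Mmp7 had a lowest value of 5.39, a median of 6.34 and a highest of 12.8 in males with metastasis, against 5.49, 7.53 and 12.8 in males without. The groups overlapped over nearly the whole range, with 19 of 87 tumors above 9.09 in males with metastasis and 14 of 39 in males without. The mean was 7.38 ± 2.08 in males with metastasis and 8.29 ± 2.32 in males without (SD, n = 87 and 39), a difference of -0.91 (SE 0.41) with an unadjusted p of 0.0288 and an adjusted p of 0.985 by limma. With burden as a covariate the difference was -0.69 (SE 0.37, unadjusted p = 0.0638 by limma).

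Mmp24 had a median of 8.23 in males with metastasis (6.13 to 9.13) and 8.13 in males without (6.28 to 8.68), and its mean differed by 0.13 (SE 0.11, adjusted p = 0.985 by limma). Timp1 had a median of 7.05 in males with metastasis (5.43 to 10.5) and 7.19 in males without (6.04 to 9.84), a difference in means of -0.20 (SE 0.19, adjusted p = 0.985 by limma). Mmp2 had a median of 8.5 in males with metastasis (6.61 to 11.3) and 9.02 in males without (6.92 to 11.0), a difference in means of -0.20 (SE 0.19, adjusted p = 0.985 by limma). The groups overlapped for all 11 probe sets, and the other 7 had differences between -0.11 and 0.04. By limma 0 of the 11 probe sets passed, as 0% of all tested probe sets did. Without adjustment, the share of tested probe sets with p under 0.05 was 3.72% by limma, 3.75% by the methods' t-test and 3.79% by the rank sum test, and Mmp7 was the 1 of the 11 among them by limma.

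**Figure D3:**
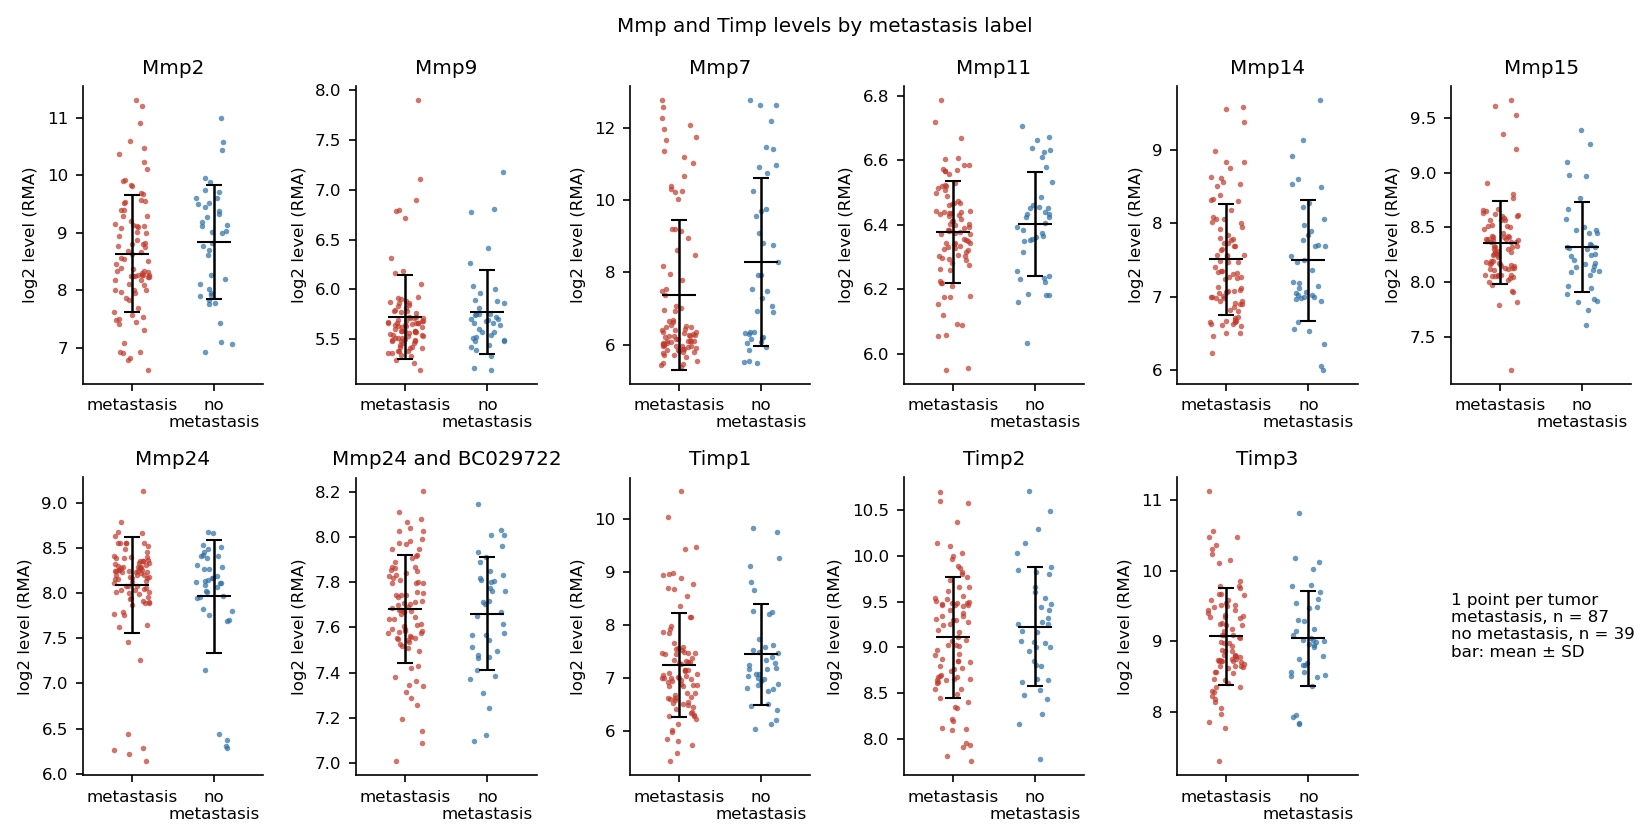
Log2 level of each of the 11 probe sets (vertical axis) in 87 tumors of males with metastasis (left, red) and 39 of males without (right, blue), 1 point per tumor, with the mean and SD in black. The groups overlap in every panel, and the mean of Mmp7 is 7.38 with metastasis and 8.29 without.

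Whether the burden slope itself differed between males with and without metastasis was tested as an interaction. None of the 11 probe sets passed by limma, as 0% of all tested probe sets did, with 3181 of 23508 at an unadjusted p under 0.05. Mmp24 had the smallest p among the 11, with a slope lower by 0.09 per g in males with metastasis (-0.09, SE 0.037, unadjusted p = 0.0156, adjusted p = 0.294 by limma). Mmp15 had a slope higher by 0.06 per g in males with metastasis (SE 0.025, unadjusted p = 0.0191, adjusted p = 0.301 by limma). Its correlation with burden was -0.322 in males with metastasis and -0.625 in males without. Without the 9 tumors with a low neuroendocrine mean the Mmp24 difference was -0.04 per g (SE 0.023, adjusted p = 0.976 by limma).

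The levels were next set against the mean of 14 epithelial genes (Cdh1, Epcam, Krt8 and others), which share no gene with the Mmps and Timps. Mmp7 rose with it by 1.54 per log2 unit (SE 0.11, adjusted p = 4.91e-27 by limma), with r = 0.788 and rho = 0.678 (permutation p = 1e-05 for each, the smallest that 100000 resamples can give). Mmp15 rose by 0.25 per unit (SE 0.021, adjusted p = 7.93e-22 by limma, r = 0.736), Mmp14 by 0.40 (SE 0.050, adjusted p = 5.64e-12 by limma, r = 0.576) and Timp2 by 0.37 (SE 0.040, adjusted p = 2.93e-15 by limma, r = 0.639). Mmp2, Mmp9, Timp1 and Timp3 rose by 0.38, 0.16, 0.27 and 0.19 per unit, with r between 0.310 and 0.433. Mmp24 fell by 0.40 per unit (SE 0.027, adjusted p = 4.01e-28 by limma). Rank correlations of these genes with the epithelial mean were weaker over the 126 tumors. The rho was 0.444 for Mmp15, 0.439 for Mmp14, 0.401 for Timp2, 0.186 for Mmp9 and -0.462 for Mmp24 (r = -0.80). For Mmp2, Timp1 and Timp3 it was 0.390, 0.272 and 0.293. In all, 9 of the 11 probe sets passed, 8 higher and 1 lower, where 60.7% of all tested probe sets did, 26.2% higher and 34.5% lower. Mmp11 and the probe set shared with BC029722 did not pass (adjusted p = 0.374 and 0.206 by limma).

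Over the 126 tumors Mmp24 fell into separate clusters, and its relation to the epithelial mean is therefore also given within them. Mmp24 was between 6.13 and 6.44 in the 9 tumors with a low neuroendocrine mean, against 7.14 to 9.13 in the other 117, so the ranges did not overlap. How many of all tested probe sets separate the 9 tumors in this way was not counted, so the gap is not read as particular to Mmp24. These tumors were not chosen by Mmp24, and no test is given for that difference, because the bound was set after the values were seen. Within the other 117 tumors, Mmp24 fell by 0.18 per unit of the epithelial mean (SE 0.032, adjusted p = 1.84e-06 by limma), with r = -0.463 (permutation p = 1e-05) and rho = -0.328 (permutation p = 0.00024). Within the 9 tumors, r was -0.398 (exact permutation p = 0.326). The r of Mmp24 with the neuroendocrine mean, given as a description, was 0.766 over the 126 tumors. It was 0.673 in the 111 tumors of at least 1 g, which include some of the 9 tumors. Over the 117 tumors it was 0.018, but these were chosen by a bound on that mean, so its range there is narrower.

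Mmp15 and Timp2 also stood high in the 9 tumors. Mmp15 was between 8.97 and 9.67 in them, against 7.19 to 9.10 in the other 117, and Timp2 between 9.66 and 10.7, against 7.75 to 10.4. Mmp7 was between 11.7 and 12.8, against 5.39 to 11.97 in the others. These ranges met but overlapped little for Mmp7 and Mmp15, while Timp1, between 6.03 and 10.5 in the 9 tumors, covered nearly its whole range. Medians in the 9 tumors were also higher for Mmp14 (8.62 against 7.27), Mmp2 (9.92 against 8.55) and Mmp9 (6.78 against 5.64). The same held for Timp1 (8.65 against 7.08) and Timp3 (9.55 against 8.95). For these ranges and medians too, no share over all tested probe sets was computed, so they are not read as particular to these genes. Without the 9 tumors, 7 of the 11 probe sets passed against the epithelial mean, where 34.2% of all tested probe sets did, and Mmp9 and Timp3 no longer did (adjusted p = 0.160 and 0.0607 by limma). Without the 15 tumors under 1 g, 6 of the 11 passed, where 47.3% of all tested probe sets did, and Mmp9, Timp1 and Timp3 did not (adjusted p = 0.0631, 0.941 and 0.0542 by limma). The correlations within the 117 tumors were 0.644 for Mmp7, 0.451 for Timp2, 0.440 for Mmp15 and 0.357 for Mmp14 (permutation p = 1e-05 for the first 3 and 8e-05 for Mmp14).

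The stromal mean was taken over 14 fibroblast genes (Col1a1, Col3a1, Dcn, Pdgfrb and others). Mmp14, Mmp2 and Timp1 followed it most closely. Mmp14 rose by 1.15 per log2 unit (SE 0.059, adjusted p = 2.42e-36 by limma), with r = 0.865 and rho = 0.811. Mmp2 rose by 1.31 (SE 0.10, adjusted p = 3.84e-22 by limma), with r = 0.750 and rho = 0.746, and Timp1 by 1.30 (SE 0.094, adjusted p = 1.34e-24 by limma), with r = 0.776 and rho = 0.753 (permutation p = 1e-05 for each r and rho). Timp2, Mmp9, Mmp7, Timp3 and Mmp15 had r of 0.639, 0.607, 0.526, 0.458 and 0.408. In all, 9 of the 11 probe sets passed, 8 higher and Mmp24 lower, where 52.3% of all tested probe sets did, 22% higher and 30.3% lower.

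Without the 9 tumors, 7 of the 11 passed against the stromal mean, where 25.2% of all tested probe sets did. Mmp24 then had a slope of -0.05 (SE 0.053, adjusted p = 0.481 by limma) and Mmp15 a slope of 0.05 (SE 0.049, adjusted p = 0.471 by limma). Without the 15 tumors under 1 g, 8 of the 11 passed, where 30.7% of all tested probe sets did, and Mmp15 did not (adjusted p = 0.0855 by limma). Timp1 had r = 0.826 within the 117 tumors and Mmp14 r = 0.818. In each of the 4 ranges of mouse tags Mmp14 had r between 0.771 and 0.974, Mmp2 between 0.586 and 0.873 and Timp1 between 0.603 and 0.880 with the stromal mean.

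The epithelial and stromal means were correlated with each other (r = 0.582), so each was also entered beside the other. At a fixed stromal mean, Mmp7 (1.42 per unit, adjusted p = 2.01e-18), Mmp15 (0.26, adjusted p = 1.48e-16) and Timp2 (0.24, adjusted p = 2.34e-06) were higher with the epithelial mean by limma, Mmp24 (-0.41, adjusted p = 2.50e-21) and Timp1 (-0.19, adjusted p = 0.00434) were lower, and Mmp2 had a slope of -0.02 (adjusted p = 0.867). This gave 5 of 11, where 50% of all tested probe sets passed. At a fixed epithelial mean, Mmp14 (1.06 per unit, adjusted p = 4.85e-26), Mmp2 (1.32, adjusted p = 2.43e-16), Timp1 (1.5, adjusted p = 2.15e-23), Timp2 (0.45, adjusted p = 1.91e-05), Timp3 (0.49, adjusted p = 0.000754) and Mmp9 (0.39, adjusted p = 4.19e-07) were higher with the stromal mean by limma. This gave 6 of 11, where 10% of all tested probe sets passed, and Mmp7, Mmp15 and Mmp24 had adjusted p of 0.364, 0.845 and 0.952. Among the 11, Timp2 alone passed as higher with each mean at a fixed level of the other. Neither fit was repeated without the 9 tumors of low neuroendocrine mean, in which the medians of both means were higher.

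**Figure D4:**
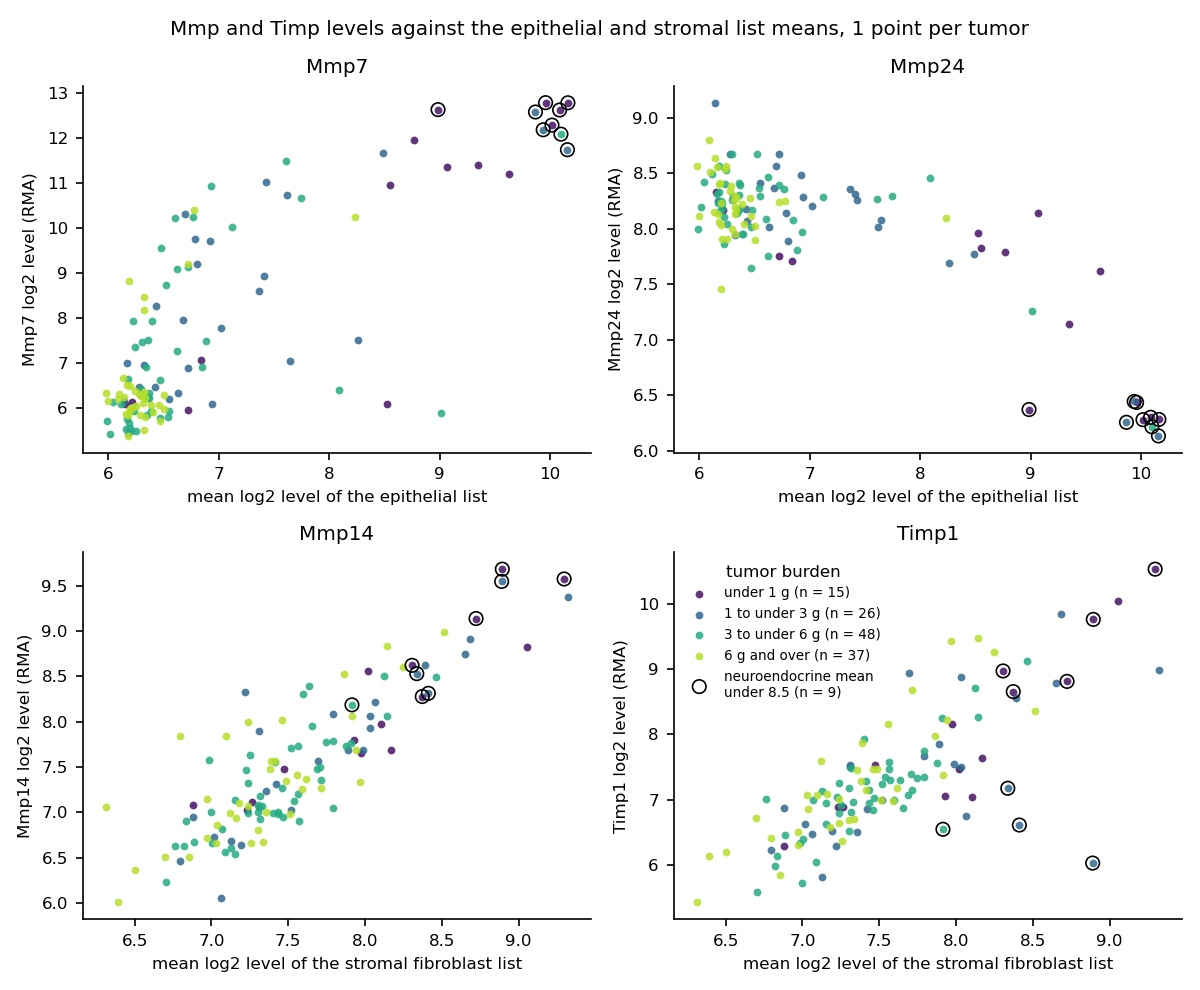
Log2 level of Mmp7 and Mmp24 against the epithelial list mean, and of Mmp14 and Timp1 against the stromal list mean, 1 point per tumor, coloured by burden class, with the 9 tumors of low neuroendocrine mean circled. The circled tumors form a separate group for Mmp24, at 6.13 to 6.44, and span 6.03 to 10.5 for Timp1, against 5.43 to 10.04 in the other tumors.

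The other cell type lists gave further differences among the genes, described here as correlations within the 117 tumors, whose list means share the arrays and each other's trends. Mmp7 had its highest r, 0.813, with the prostate secretory mean (Pbsn, Msmb and 4 others), above its r of 0.644 with the epithelial mean. Mmp14 and Timp1 had r of 0.743 and 0.739 with the macrophage mean, and Mmp9 had 0.542 with the stromal, 0.505 with the macrophage and 0.438 with the neutrophil mean. Of 9 tested neutrophil genes, 4 were higher and 1 lower with the epithelial mean over 126 tumors by limma. The neutrophil mean therefore cannot be read as neutrophil content. Mmp15 was the only one of the 11 with r under -0.4 against the neuroendocrine mean (-0.436), where Timp2 had 0.418. The 117 tumors were chosen by a bound on that mean, so its range is narrower there. Over the 126 tumors r with it was -0.757 for Mmp15, -0.53 for Mmp7 and -0.458 for Mmp14. Timp2 then had -0.306, the opposite sign. Mmp11 and the probe set shared with BC029722 had no r outside -0.22 to 0.29 with any list. The part of these cell types in the levels of the Mmps and Timps was not tested.

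**Figure D5:**
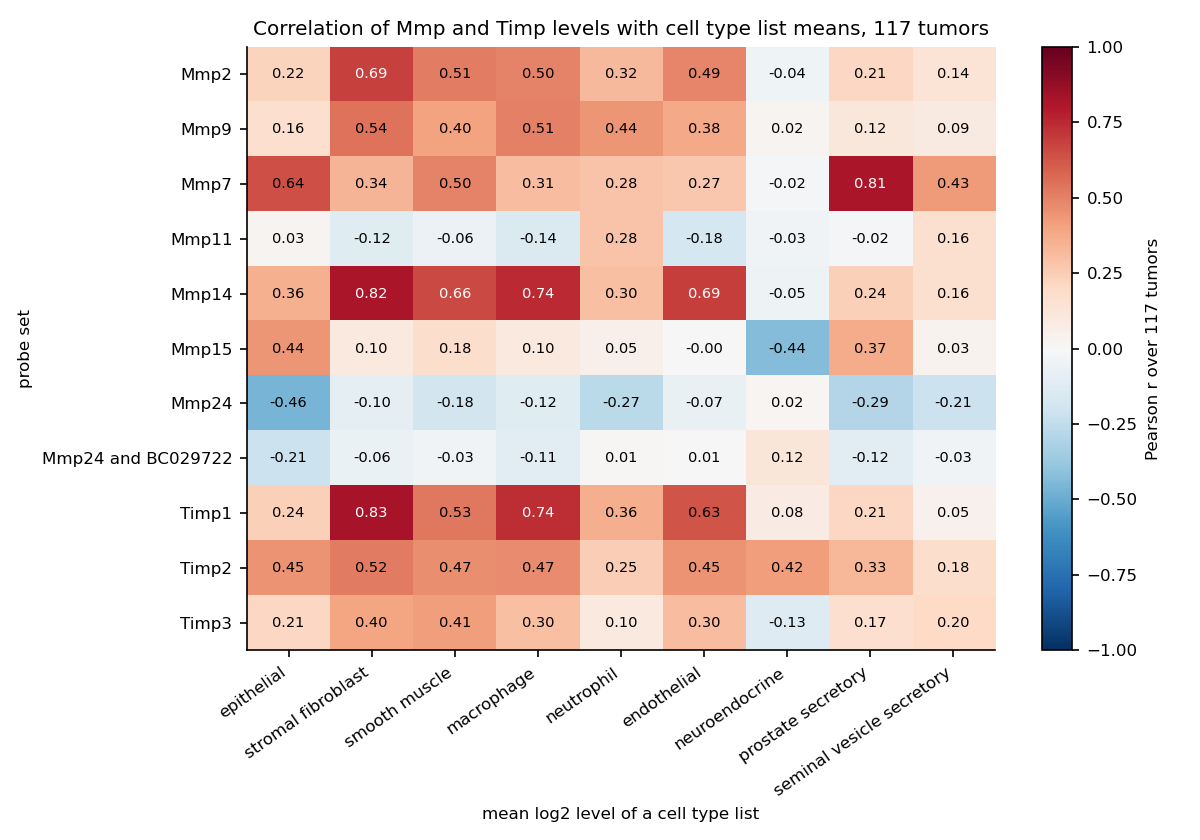
Pearson's r of each of the 11 probe sets (rows) with the mean log2 level of 9 cell type lists (columns) over the 117 tumors with a neuroendocrine mean of at least 8.5, from blue (-1) to red (1). Mmp14 and Timp1 are highest with the stromal mean (0.82 and 0.83), Mmp7 with the prostate secretory mean (0.81), and Mmp24 is lowest with the epithelial mean (-0.46).

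Among the 10 genes themselves, 32 of 45 pairs had r above 0 over the 126 tumors, with a median r of 0.288. The share above 0 among pairs of all tested genes was not computed, so this count has no baseline. The pair of Mmp2 and Mmp14 was highest, with r = 0.687 and rho = 0.623, and 0.604 within the 117 tumors (permutation p = 1e-05 for each). Over the 126 tumors, 0.039% of 20631 other genes had a higher r with Mmp2 than Mmp14 did. With Mmp14, 0.848% had a higher r than Mmp2 did. Mmp14 and Timp1 had r = 0.665 over the 126 tumors and 0.688 within the 117, and Mmp2 and Timp1 had 0.637 and 0.628 (permutation p = 1e-05 for each, not adjusted over pairs). Timp2, the partner of Mmp14 in activating Mmp2, had r = 0.541 with Mmp14 and 0.368 with Mmp2, and 0.378 and 0.209 within the 117 tumors (permutation p = 1e-05 and 0.0242). Over the 126 tumors, 6.28% of 20631 other genes had a higher r with Timp2 than Mmp14 did, and 15.1% a higher r than Mmp2 did. Neither pair therefore stood out from many other genes. In every range of mouse tags the r of Mmp2 with Mmp14 was between 0.567 and 0.839. The lowest pooled pair, Mmp15 with Mmp24, rested on the 9 tumors, since r was 0.00055 within the other 117 (permutation p = 0.995) and rho over all tumors was -0.139 (permutation p = 0.119). Mmp24 and the probe set shared with BC029722 had r = -0.105 within the 117 tumors (permutation p = 0.256).

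The genes with the most similar pattern were taken as the 3 with the highest Pearson's r over the 126 tumors among 20631 genes. For Mmp2 they were Col5a2 (0.735), Mrc2 (0.719) and Loxl1 (0.709), and for Mmp14 Loxl1 (0.855), Col1a2 (0.829) and Colec12 (0.827). Col5a2 and Col1a2, fibrillar collagen chains, also belong to the stromal list. For Timp1 they were Lox (0.845), the enzyme that cross-links collagen, Fn1 (0.811), which encodes fibronectin, and Mfap5 (0.799). For Mmp7 they were Ceacam1 (0.914), Clu (0.890) and Defb50 (0.872), and for Mmp15 Aff1 (0.796), Grhl1 (0.793) and Ctnna1 (0.766), the gene of alpha-catenin. Without the 9 tumors of low neuroendocrine mean the 3 values of Mmp15 were 0.602, 0.55 and 0.503.

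For Mmp24 they were Lonrf2 (0.910), Ncs1 (0.905), which encodes neuronal calcium sensor 1, and Asphd2 (0.904), values that fell to 0.631, 0.649 and 0.580 without the 9 tumors of low neuroendocrine mean. For Mmp9 they were Mmp19 (0.722), Pf4 (0.700) and Stab1 (0.686), of which Pf4 is known from platelets and Stab1 from macrophages. For Timp2 they were Camk2d (0.838), Pdlim5 (0.835) and Sec24d (0.813), and for Timp3 Ptpn14 (0.630), Bmp7 (0.609) and Rhoj (0.549). For Mmp11 they were Sla2 (0.581), Mrgpra1 (0.569) and Gm9736 (0.569), and for the probe set shared with BC029722 Ilvbl (0.525), Inafm1 (0.475) and Sqstm1 (0.475).

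Further genes of the pathway were read against the shares of all tested probe sets, 20.3% higher and 16.4% lower with burden. Of 14 other tested Mmps, 2 were higher and 4 lower. Mmp12, the macrophage elastase, rose by 0.10 per g (SE 0.023, adjusted p = 0.000611 by limma), and Mmp13, a collagenase, by 0.08 per g (SE 0.022, adjusted p = 0.00126 by limma). Mmp19, Mmp28, Mmp20 and Mmp3 had slopes of -0.04, -0.03, -0.01 and -0.03 per g (adjusted p = 0.0184, 0.0267, 0.0365 and 0.0420 by limma). The remaining 8 (Mmp8, Mmp10, Mmp16, Mmp17, Mmp21, Mmp23, Mmp25 and Mmp27) had slopes between -0.02 and 0.03 per g and did not pass, and Mmp1a and Mmp1b were under the filter on low levels. With the stromal mean, 6 of the 14 were higher and 1 lower, Mmp19 (0.66 per unit, adjusted p = 7.54e-20 by limma) and Mmp23 (0.33, adjusted p = 3.97e-10 by limma) among the higher, where 22% of all tested probe sets were higher and 30.3% lower.

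Timp4, the remaining Timp, had a slope of -0.28 per g (SE 0.046, adjusted p = 1.78e-06 by limma), close in size to that of Mmp7. With Thbs2 (-0.07 per g, adjusted p = 0.0365 by limma), a matrix protein that clears Mmp2, it made 2 of 6 further inhibitors lower with burden and 0 higher, while Reck, A2m, Tfpi2 and Lrp1 did not pass. In plasminogen activation, which yields plasmin for the activation of several Mmps, 5 of 9 tested genes were lower and 1 higher. Plat and Plau, the plasminogen activators, fell by 0.09 and 0.08 per g (adjusted p = 6.66e-06 and 0.00215 by limma), and the receptor Plaur and Anxa2 by 0.04 and 0.06 per g (adjusted p = 0.0113 and 0.0153 by limma).

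Of 11 activators and partners of the Mmps, 7 were lower with burden and 0 higher. Furin, the convertase that activates Mmp11 and the membrane-anchored Mmps, fell by 0.07 per g (SE 0.011, adjusted p = 1.05e-06 by limma), Lcn2, which binds Mmp9, by 0.11 per g (adjusted p = 4.15e-05), Cldn1 by 0.10 per g (adjusted p = 9.48e-05) and Itgav by 0.10 per g (adjusted p = 0.00063), all by limma. Of 14 Adam and Adamts proteases 7 were lower and 1 higher, with Adam15 and Adamts15 falling by 0.07 per g each (adjusted p = 7.45e-06 and 1.66e-05 by limma), Adam9 by 0.04 (adjusted p = 0.000723 by limma) and Adamts5 by 0.06 (adjusted p = 0.00383 by limma). Of 15 regulators of Mmp genes, among them Fos, Jun, the Ets factors and cytokines, 1 was lower, Tgfb1 (-0.04 per g, adjusted p = 0.0120 by limma), and 0 were higher. The median slopes of these lists lay between -0.05 and 0.0034 per g, against 0.0036 over all tested probe sets, and 0 genes of any of them passed against metastasis by limma. With the epithelial and stromal means beside burden, 0 genes of these 6 lists passed by limma, where 0.442% of all tested probe sets did.

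Without the 9 tumors of low neuroendocrine mean fewer genes of these lists passed against burden by limma, where 11.5% of all tested probe sets did. Mmp12 was the 1 of the 14 other Mmps that passed, as higher. Timp4 was the 1 of 6 further inhibitors and Plat the 1 of 9 plasminogen activation genes, both lower. Among the 11 activators and partners 3 were lower (Furin, Cldn1 and Lcn2), among the 14 Adam and Adamts proteases 2 (Adam15 and Adamts15), and of the 15 regulators 0 passed. Against the stromal mean in the same 117 tumors, 4 of the 14 other Mmps were higher (Mmp3, Mmp8, Mmp19 and Mmp23) and 0 lower by limma, where 25.2% of all tested probe sets passed.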

How the data were processed

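RNA levels of 126 snap-frozen prostate tumors, each from a different male, came from the Affymetrix platform named in the report, with 1 array for each tumor. The authors deposited log2 values made by RMA in Partek, whose version and settings are not given in the sources used here; RMA subtracts background, quantile normalizes the arrays and summarises probes, so shifts shared by all probe sets are removed. Intensities before RMA were not used here. The number of arrays limits the precision.

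Groups and burden were taken from the labels. Of 41345 probe sets, 23522 carried 1 symbol, 1820 several and 16003 none in the platform table. Named probe sets with a mean of at least the 10th percentile (3.42) were tested, 23508 in all. limma 3.58.1 (R 4.3.3) was fitted across all of them on burden, on metastasis against no metastasis, on their interaction, on the epithelial or stromal list mean, and on burden given both means, with Benjamini-Hochberg adjustment over all tested probe sets and a threshold of 0.05. Pearson's r and Spearman's rho had permutation p-values from 100000 resamples, of which 1e-05 is the smallest possible, or exact ones for 9 tumors, and are not adjusted over genes. The limma step was tested on simulated data.

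All 10 genes are named, with the 3 nearest genes of each, up to 4 genes of each pathway list by the smallest adjusted p for burden, and all other Mmps. The genes and lists were chosen with earlier results of these data known. Alternatives were other filters, array centring, a second quantile normalization, the mouse tag range as a block, other tests and covariates, and left-out tumors. Promoters are from the RefSeq table (GRCm38.p6), and no genome build is needed for the array values.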

Additional observations from a re-analysis of the deposited data

How the results depend on the processing

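Another filter, centring, quantile normalization and leaving out 1 array of low mean correlation left the counts of Mmp and Timp calls as they were in all 6 comparisons. Of the 11 probe sets, 7 passed against burden, against 2 without tumors under 1 g and 3 without the 9 tumors of low neuroendocrine mean, an alternative chosen after seeing the data. On the epithelial mean 5 passed with the stromal mean as a covariate, and on burden 2 passed with only the stromal mean as a covariate. These fits differ in the tumors or covariates they hold, and the cause was not tested. The second probe set of Mmp7 had a burden slope of -0.01 (adjusted p = 0.512 by limma), with a mean of 3.87 and an SD of 0.20, near the low-level bound of 3.42. The second probe set of Mmp11 had a burden slope of 0.0086 (adjusted p = 0.364 by limma). No paired analysis was possible because each male gave 1 array and replicate numbers only name the tumors.

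Some values changed sign. On the epithelial mean with the stromal mean as a covariate, Timp1 was -0.19 (adjusted p = 0.00434 by limma) and Mmp2 -0.016. On burden, Mmp11 was -0.000262 with the mouse tag range as a block and -0.00105 without the 2 tumors of most extreme burden. For metastasis, Mmp9, Mmp24 and the shared probe set were 0.00413, -0.00524 and -0.0223 without tumors under 1 g, Mmp9 and the shared probe set 0.00114 and -0.0144 without the 9 tumors, and Mmp14 -0.000442 by the rank sum test. For the interaction, Mmp11 was -0.000943 with the tag block, -0.00686 on log2 burden and -0.00186 without the 2 extreme tumors, Timp1 was -0.0484 on log2 burden, and Mmp14 and Timp1 were -0.0109 and -0.0206 without the 9 tumors. On the stromal mean with the epithelial mean as a covariate, Mmp15, Mmp24 and the shared probe set were -0.0208, 0.00919 and 0.00978. On burden given both means, Mmp15 and Timp3 were 0.00328 and -0.0100 with the tag block, Timp3 was -0.00538 without tumors under 1 g, and Mmp9, Mmp15 and Timp1 were -0.0274, 0.00134 and -0.00617 on log2 burden. With only the epithelial mean as a covariate, Mmp2, Mmp9, Mmp14, Timp1 and Timp3 were -0.00349, -0.00698, -0.0193, -0.00665 and -0.0126. With only the stromal mean, Mmp9, Mmp11, Mmp14, Mmp24 and Timp3 were -0.00244, -0.00208, -0.00049, 0.0339 and -0.0041.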
